A study of Mus musculus with 8 samples.

Results

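The 50 genes described here drive or mark the cell cycle. They comprise 19 regulators (cyclins, cyclin-dependent kinases, their inhibitors, activating E2F factors and Mycn), 13 genes of DNA replication and 18 genes of mitosis. They were taken as a list of symbols, and a symbol with several transcripts was represented by the one with the highest mean count. All 50 were found among 20701 gene symbols, and all 50 were among the 13769 genes with enough counts to be tested.

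Polyadenylated RNA was sequenced from single C57BL/6 mouse embryos at E10.5, from which the outflow tract (OFT) and the right ventricle (RV) had been dissected together. Of the 8 libraries, 4 came from wild-type embryos (CTRL) and 4 from embryos homozygous for a hypomorphic allele of Isl1 (Isl1-f;neo/f;neo, Isl1_hypo). Isl1 is a LIM-homeodomain transcription factor of the second heart field, and the allele lowers its expression in every cell that uses it rather than in 1 cell type. The tissue was not sorted, and litters were not given in the labels, so the p-values measure the spread between these embryos.

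A dividing cell passes from G1 through DNA synthesis (S phase) and G2 to mitosis (M phase). D-type cyclins with Cdk4 or Cdk6, and then E-type cyclins with Cdk2, inactivate the retinoblastoma proteins, which frees E2F factors to switch on genes for replication. A- and B-type cyclins with Cdk1 then carry the cell through G2 into mitosis, where spindle motors, kinetochore proteins and checkpoint kinases separate the chromosomes. In the embryonic heart, undifferentiated second heart field cells divide rapidly at its poles, and the cardiomyocytes of the ventricles continue to divide while they contract.

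Genes of S phase and genes of mitosis are known for different promoter words, which are shown first because the genes are described by these classes. RefSeq promoters (GRCm38.p6) matched 40 of the 50 genes, with 46 start sites. Of these, 20 belonged to regulators, 12 to replication and 14 to mitosis genes, so the class percentages rest on few promoters. A gene with several start sites is counted at each. The 250 bases before each start were searched on both strands for E2F-like words (TTCCCGC or TTGGCGC or TTGCCGC or TTCGCGC), for TTTGAA, the core of the cell cycle homology region of late-cycle genes, and for CCAAT, the word read by the factor NF-Y. The E2F-like words TTGGCGC and TTCGCGC can overlap each other on opposite strands, so that 1 stretch can count more than once. E2F-like words lay in 58.3% of replication promoters, in 30% of regulator promoters and in 7.14% of mitosis promoters, compared with 7.89% of all 32851 promoters and 13.3% of those of tested genes. TTTGAA lay in 35.7% of mitosis promoters, in 25% of regulator promoters and in 8.33% of replication promoters (16% of all promoters and 1430 of the 13622 promoters of tested genes). CCAAT lay in 85.7% of mitosis, 75% of replication and 45% of regulator promoters, compared with 33.8% of all promoters and 34.8% of those of tested genes. The 5 promoters below, with each match in capitals, belong to genes whose groups did not overlap: Ccne1, Mcm6 and Rrm2 were higher and Cenpf and Mki67 lower. They were picked with the matches known, and Mcm6 held the most E2F-like matches of any of these genes. They lie at chr7:38107491-38107740 on the minus strand (Ccne1), chr1:128359706-128359955 on the minus strand (Mcm6), chr12:24708004-24708253 on the plus strand (Rrm2), chr1:189688087-189688336 on the minus strand (Cenpf) and chr7:135716380-135716629 on the minus strand (Mki67).
Ccne1: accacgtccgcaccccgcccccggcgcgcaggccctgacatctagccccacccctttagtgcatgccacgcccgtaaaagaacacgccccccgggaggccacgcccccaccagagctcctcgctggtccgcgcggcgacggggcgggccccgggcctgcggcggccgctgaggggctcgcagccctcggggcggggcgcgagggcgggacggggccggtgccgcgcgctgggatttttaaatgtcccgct
Mcm6: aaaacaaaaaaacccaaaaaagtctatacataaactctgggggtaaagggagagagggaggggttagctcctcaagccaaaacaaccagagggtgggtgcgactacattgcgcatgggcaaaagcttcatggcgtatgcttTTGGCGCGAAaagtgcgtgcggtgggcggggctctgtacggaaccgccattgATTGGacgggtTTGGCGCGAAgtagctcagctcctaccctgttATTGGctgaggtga
Rrm2: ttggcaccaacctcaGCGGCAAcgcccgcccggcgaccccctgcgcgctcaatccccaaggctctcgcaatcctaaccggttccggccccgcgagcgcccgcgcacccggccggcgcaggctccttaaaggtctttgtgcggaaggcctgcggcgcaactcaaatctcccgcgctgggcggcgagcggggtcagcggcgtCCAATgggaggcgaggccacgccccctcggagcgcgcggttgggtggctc
Cenpf: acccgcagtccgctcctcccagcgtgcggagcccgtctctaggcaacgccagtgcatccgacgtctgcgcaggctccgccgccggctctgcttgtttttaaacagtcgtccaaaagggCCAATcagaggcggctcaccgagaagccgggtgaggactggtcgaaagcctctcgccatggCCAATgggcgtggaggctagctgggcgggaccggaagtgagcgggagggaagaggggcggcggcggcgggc
Mki67: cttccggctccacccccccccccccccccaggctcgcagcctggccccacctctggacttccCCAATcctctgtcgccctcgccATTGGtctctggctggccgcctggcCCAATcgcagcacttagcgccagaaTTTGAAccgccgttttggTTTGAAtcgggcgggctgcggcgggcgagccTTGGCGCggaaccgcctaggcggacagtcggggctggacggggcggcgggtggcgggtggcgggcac
The Mcm6 window held 4 E2F-like matches, which form a pair of overlapping stretches, and 2 CCAAT matches. The Rrm2 window held 1 E2F-like and 1 CCAAT match. In the Cenpf window there were 2 CCAAT matches and no other, and in the Mki67 window 1 E2F-like, 2 TTTGAA and 3 CCAAT matches. None of these words occurred in the Ccne1 window, which says only that these letters are not in it.

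The targeted gene was examined first. Isl1 was at 29.6, 61.5, 46.2 and 51.3 CPM (TMM-scaled count level) in the CTRL libraries, in the order of their replicate numbers, and at 12.7, 6.86, 7.71 and 11.4 CPM in Isl1_hypo. It fell by 2.29 on the log2 scale (SE 0.26, adjusted p = 0.0077, edgeR quasi-likelihood test). Libraries held 29748458 to 46678973 counts in CTRL and 18422245 to 33050298 in Isl1_hypo. Myocardial markers were abundant in both groups, with a summed level of 52980 to 64270 CPM in CTRL and 55570 to 67060 CPM in Isl1_hypo. Globin genes took 0.212% to 1.19% of counts in CTRL and 1.18% to 2.44% in Isl1_hypo. All 11 tested erythroid markers were higher in Isl1_hypo (summed level 56.0 to 183 CPM in CTRL and 211 to 450 CPM in Isl1_hypo), with Tspo2 at 0 in every library. CTRL replicate 1 (toward long transcripts) and Isl1_hypo replicate 3 (toward short ones) stood apart from the other libraries in their dependence on transcript length, and Isl1_hypo replicate 3 also in that on GC content. Transcripts of Y-linked genes were present in CTRL replicate 3 and in Isl1_hypo replicates 1, 3 and 4.

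In embryos with reduced Isl1, cell cycle genes differed by little. Of the 50 genes, 37 were higher in Isl1_hypo and 13 lower, with a median log2 fold change of 0.11 (all tested genes: 7007 higher and 6762 lower, median 0.01). All 13 replication genes were higher (median 0.13), as were 16 of 19 regulators (median 0.13), whereas 8 of 18 mitosis genes were higher and 10 lower (median -0.02). The balance of the mitosis class turned with the setting: 5 were higher without CTRL replicate 4, 10 without CTRL replicate 2, 11 with the trend on transcript length removed and 12 with globin level as a covariate. The median of all genes was 0.0062, 0.0076, 0.0402 and 0.0048 in these fits. Because RNA came from whole tissue, fewer cells in a phase and less RNA per cell cannot be told apart.

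No single gene passed the test. Of the 50 genes, 0 had an adjusted p under 0.05 by the quasi-likelihood test of edgeR, which called 0.269% of all genes tested. At an unadjusted p under 0.05, 10 of the 50 differed. The 7 that were higher were Ccnd2, Ccne1, Ccne2, Mcm6, Gins2, Cdc6 and Rrm2, which is 14% of the list, against 5.69% of all genes called higher at that level. The 3 that were lower were Cenpe, Cenpf and Mki67, which is 6% of the list, against 6.17% of all genes. DESeq2 gave an adjusted p under 0.05 for 3 of the 50 (Ccne1, Ccne2 and Mki67), against 2.32% of all genes. Limma-voom gave it for 1 (Ccne1), against 0.973% of all genes. In 7 genes (Ccne1, Ccne2, Ccnb2, Mcm6, Pcna, Rrm1 and Rrm2) every Isl1_hypo library lay above every CTRL library, and 4.06% of all genes tested did so. In 3 genes (Cenpe, Cenpf and Mki67) every Isl1_hypo library lay below, as in 4.44% of all genes.

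**Figure D1:**
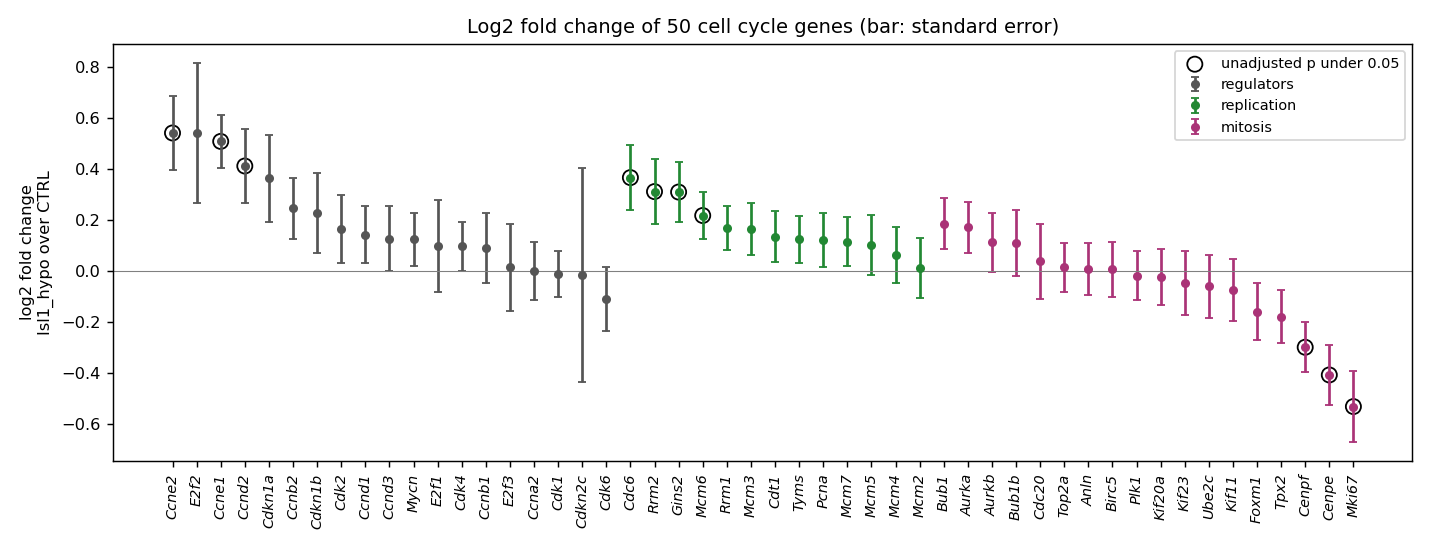
Log2 fold change (Isl1_hypo over CTRL, vertical axis) of the 50 genes, ordered within the 3 classes, with bars for the standard error and circles around genes with an unadjusted p under 0.05. All 13 replication genes sit above 0, and the mitosis genes run from 0.19 (Bub1) to -0.53 (Mki67).

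The mean log2 level over the genes of a class was also taken in each library. Relative to the CTRL mean, the replication class lay at -0.02, 0.03, 0.06 and -0.07 in CTRL replicates 1 to 4 and at 0.17, 0.18, 0.22 and 0.11 in Isl1_hypo. The regulators lay at 0.01, 0.05, -0.03 and -0.03 in CTRL and at 0.10, 0.21, 0.28 and 0.14 in Isl1_hypo. In both classes each Isl1_hypo library was above each CTRL library. The mitosis class lay at 0.04, 0.06, 0.04 and -0.13 in CTRL and at -0.09, -0.08, -0.02 and -0.06 in Isl1_hypo, and the groups overlapped because CTRL replicate 4 was the lowest of the 8. That library was the lowest of all in 17 of the 50 genes (34%), and in 10.8% of all genes tested. CTRL replicate 1 was the lowest in 15 of the 50 (30%, compared with 17.1% of all genes). Isl1_hypo replicate 3 was the highest in 17 (34%, compared with 26.2%) and the lowest in 4 (8%, compared with 28.4%). With all libraries, 5.69% of all genes were higher at an unadjusted p under 0.05. Without CTRL replicate 4, 11 of the 13 replication genes were higher and 1 instead of 4 had an unadjusted p under 0.05 (4.73% of all genes higher). Without CTRL replicate 3 that count was 2 (4.61% of all genes higher). Without Isl1_hypo replicate 1 the same count in regulators was 5 instead of 3 (6.485% of all genes higher). The median of the replication class was then 0.14, and without Isl1_hypo replicate 3 it was 0.15.

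**Figure D2:**
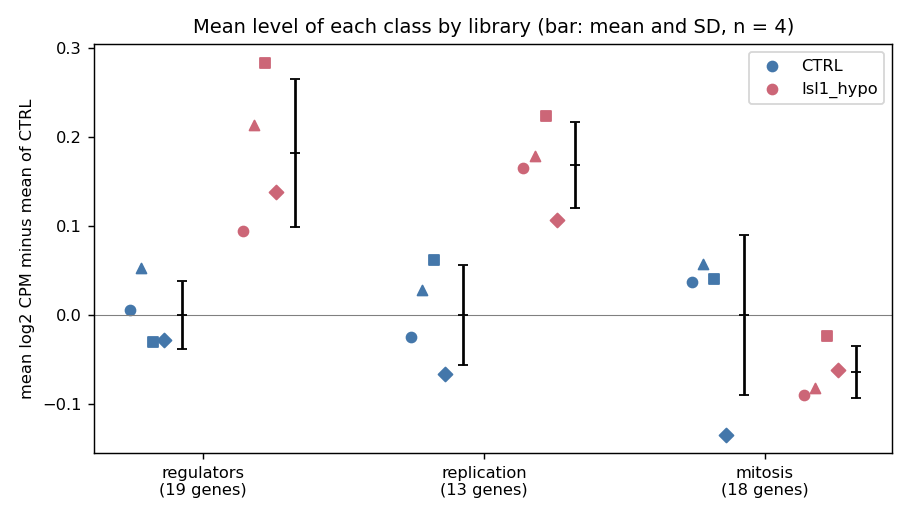
Mean log2 CPM of each class in each library, minus the mean of the 4 CTRL libraries (vertical axis), with symbols for replicates 1 to 4 and bars for the group mean and SD (n = 4). Isl1_hypo libraries lie above all CTRL libraries for regulators and replication, from 0.10 to 0.28 and from 0.11 to 0.22. For mitosis they lie from -0.09 to -0.02, above CTRL replicate 4 and below the other CTRL libraries.

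Levels per transcript length were compared on the authors' RPKM scale. Among regulators, 3 genes of G1 led. Cdk4, the kinase partner of D-type cyclins, had 521 ± 38.6 RPKM in CTRL and 548 ± 26.8 RPKM in Isl1_hypo (mean ± SD, n = 4), followed by Ccnd3 (231 ± 32.4 and 248 ± 29.5 RPKM) and Ccnd2 (125 ± 17.4 and 164 ± 26.6 RPKM). Ccna2, of S and G2 phase, came next (103 ± 8.35 RPKM in CTRL). The other D-type cyclin and kinase were far lower, with Ccnd1 at 39.3 ± 5.62 and Cdk6 at 4.17 ± 0.56 RPKM in CTRL. Among replication genes the ribonucleotide reductase subunits Rrm2 (73.7 ± 6.08 RPKM in CTRL) and Rrm1 (73.0 ± 2.79) led and did not differ from each other beyond their spread. Among mitosis genes Ube2c, the ubiquitin-conjugating enzyme of the anaphase-promoting complex, had 204 ± 14.6 RPKM in CTRL, and Cdc20, an activator of that complex, 57.2 ± 6.98 RPKM. The long genes Cenpe, Cenpf and Mki67 were near the bottom of their class, at 6.15 ± 0.19, 5.52 ± 0.27 and 5.11 ± 0.94 RPKM.

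**Figure D3:**
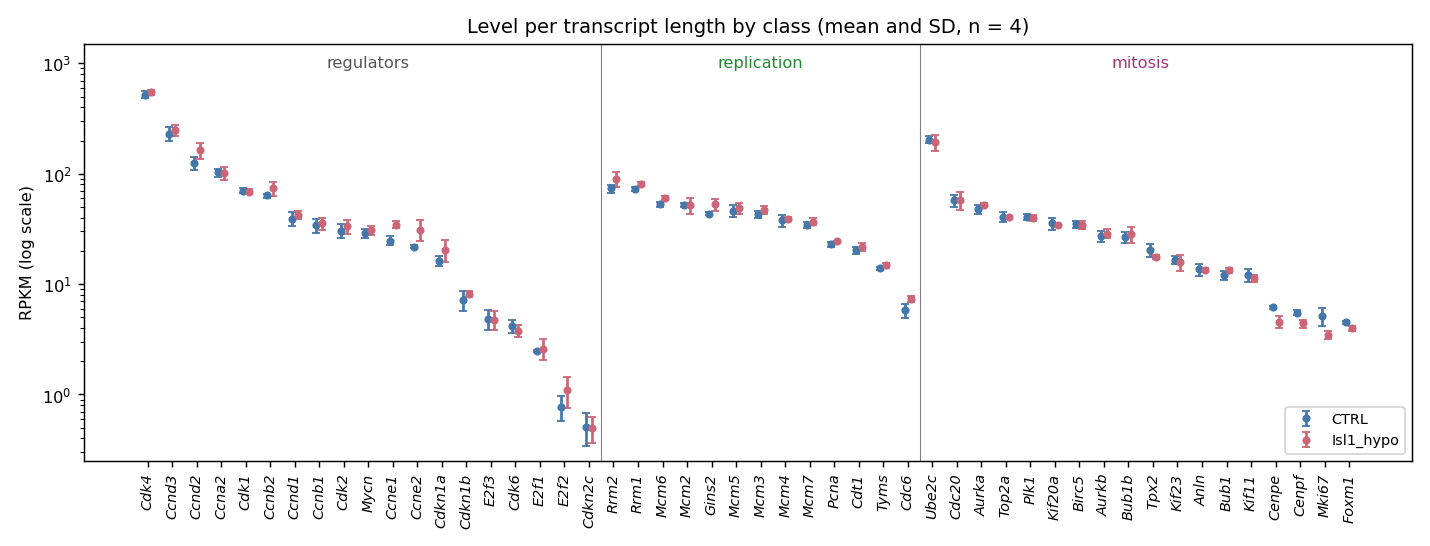
Level per transcript length (authors' RPKM, log scale) of the 50 genes by class, ordered by their mean over all libraries, as mean and SD of 4 libraries for CTRL (blue) and Isl1_hypo (red). Levels run from 521 RPKM for Cdk4 to 0.51 RPKM for Cdkn2c in CTRL.

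The E-type cyclins, which with Cdk2 carry cells from G1 into S phase, were both higher, and Ccne1 had the lowest unadjusted p of the 50 genes. Ccne1 was at 84.7, 77.5, 69.6 and 82.1 CPM in CTRL and at 114, 105, 124 and 104 CPM in Isl1_hypo. Every Isl1_hypo library was above every CTRL library, and Ccne1 was 1.42-fold higher (log2 fold change 0.51, SE 0.11, unadjusted p = 0.00048, adjusted p = 0.082, edgeR). Its log2 fold change stayed between 0.45 and 0.56 in all 20 alternatives, with an unadjusted p under 0.05 in each. Ccne2 was at 109, 107, 106 and 107 CPM in CTRL and at 132, 149, 210 and 133 CPM in Isl1_hypo. The CTRL values lay within a narrow band and all Isl1_hypo values above it, with replicate 3 far above the others (log2 fold change 0.54, SE 0.14, unadjusted p = 0.0029, adjusted p = 0.18, edgeR). Without Isl1_hypo replicate 3 the log2 fold change of Ccne2 was 0.36 (unadjusted p = 0.00091), and it was 0.35 with the trend on GC content removed. Its unadjusted p was under 0.05 in 19 of 20 alternatives, over which the value ran from 0.35 to 0.61. Cdk2, their kinase, had a log2 fold change of 0.17 (SE 0.13, unadjusted p = 0.24) with overlapping groups.

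Among D-type cyclins, the sensors of growth signals in G1, Ccnd2 stood apart. Ccnd2 was at 999, 1401, 1120 and 1197 CPM in CTRL and at 1223, 1499, 1737 and 1819 CPM in Isl1_hypo. The 3 highest libraries were Isl1_hypo, while Isl1_hypo replicate 1 lay among the CTRL values (log2 fold change 0.41, SE 0.14, unadjusted p = 0.015, adjusted p = 0.30, edgeR). Without Isl1_hypo replicate 4 the value of Ccnd2 was 0.33 (unadjusted p = 0.054), and over the 20 alternatives it ran from 0.30 to 0.53, with an unadjusted p under 0.05 in 18. Ccnd1 was at 288, 238, 228 and 216 CPM in CTRL and at 281, 286, 262 and 242 CPM in Isl1_hypo. Its groups overlapped because CTRL replicate 1 was the highest library (log2 fold change 0.14, unadjusted p = 0.23). Without that library the value of Ccnd1 was 0.23 (unadjusted p = 0.040), and without CTRL replicate 4 it was 0.09. It was 0.20 by limma-voom (unadjusted p = 0.044) and 0.34 with globin level as a covariate. Ccnd3 was at 584, 803, 760 and 830 CPM in CTRL and at 858, 864, 687 and 842 CPM in Isl1_hypo. The libraries CTRL 1 and Isl1_hypo 3 were low within their groups, and the log2 fold change was 0.13 (unadjusted p = 0.34). Without CTRL replicate 1 it was 0.02, without Isl1_hypo replicate 3 it was 0.20, and with the GC trend removed 0.30 (unadjusted p = 0.032).

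The kinase partners of the D-type cyclins gave smaller values. Cdk4 was at 1001, 1214, 1148 and 1183 CPM in CTRL and at 1252, 1206, 1162 and 1241 CPM in Isl1_hypo, with overlapping groups and a log2 fold change of 0.10 (SE 0.10). Over the 20 alternatives Cdk4 ran from 0.04 without CTRL replicate 1 to 0.21 with the GC trend removed (unadjusted p = 0.084). Cdk6 was at 90.5, 80.4, 70.5 and 71.3 CPM in CTRL and at 60.3, 81.7, 75.4 and 72.1 CPM in Isl1_hypo. The highest and the lowest library of Cdk6 were the replicates numbered 1 of either group, and its log2 fold change of -0.11 (SE 0.13) had an unadjusted p of 0.40. It was -0.04 without CTRL replicate 1, -0.03 without Isl1_hypo replicate 1 and -0.18 without Isl1_hypo replicate 2, the lowest of the 20 alternatives, while the highest was 0.08 with the length trend removed.

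Of the G2 and M phase cyclins, only Ccnb2 had groups that did not overlap. Ccnb2, a B-type cyclin that activates Cdk1, was at 147, 165, 159 and 163 CPM in CTRL and at 171, 166, 233 and 183 CPM in Isl1_hypo. The gap between the highest CTRL library (165.3 CPM) and the lowest Isl1_hypo library (165.5 CPM) was small, and the log2 fold change of 0.25 (SE 0.12) had an unadjusted p of 0.062. Without Isl1_hypo replicate 3 the value of Ccnb2 was 0.13 (unadjusted p = 0.16), without Isl1_hypo replicate 2 it was 0.30 (unadjusted p = 0.039), and with globin level as a covariate 0.10. The related genes Ccna2, Ccnb1 and Cdk1 had log2 fold changes of 0.00, 0.09 and -0.01, each with overlapping groups.

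Of the 3 inhibitors of cyclin-dependent kinases, Cdkn1a had the largest value. Cdkn1a (p21), a p53 target that blocks G1 kinases, was at 52.0, 54.7, 43.9 and 52.4 CPM in CTRL and at 43.8, 66.9, 81.0 and 69.5 CPM in Isl1_hypo. The lowest library and the 3 highest were all Isl1_hypo (log2 fold change 0.36, SE 0.17, unadjusted p = 0.055). Its unadjusted p was under 0.05 in 3 of 20 alternatives, over which the value ran from 0.24 without Isl1_hypo replicate 3 (unadjusted p = 0.15) to 0.53. Without Isl1_hypo replicate 1 the value of Cdkn1a was 0.51 (unadjusted p = 0.0023), by DESeq2 0.37 (unadjusted p = 0.045) and with the GC trend removed 0.53 (unadjusted p = 0.033). Cdkn1b (p27), linked to cell cycle exit, was at 32.9, 30.1, 20.04 and 28.7 CPM in CTRL and at 35.0, 30.9, 32.8 and 32.03 CPM in Isl1_hypo. Its groups overlapped, with CTRL replicate 3 the lowest (log2 fold change 0.23, SE 0.16). Over the 20 alternatives Cdkn1b ran from 0.09 without that library to 0.40 with the Y-linked covariate (unadjusted p = 0.067). Cdkn2c (p18), an inhibitor of Cdk4 and Cdk6, was weakly expressed, at 1.31, 1.65, 2.53 and 1.30 CPM in CTRL and 1.47, 1.76, 2.31 and 1.18 CPM in Isl1_hypo, with a log2 fold change of -0.02 (SE 0.42).

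The 4 transcription factors of the G1 to S transition had log2 fold changes from 0.01 to 0.54, each with overlapping groups. E2f2, an activating E2F, was at 7.01, 6.15, 4.00 and 7.18 CPM in CTRL and at 6.30, 9.56, 12.6 and 6.92 CPM in Isl1_hypo. Isl1_hypo replicates 2 and 3 were above all CTRL libraries and replicates 1 and 4 among them, so that the log2 fold change of 0.54 had an SE of 0.28 (unadjusted p = 0.074). Without Isl1_hypo replicate 3 it was 0.32 and without Isl1_hypo replicate 1 it was 0.67 (unadjusted p = 0.036). E2f2 was at 0.83 with the Y-linked covariate (unadjusted p = 0.032), 0.67 with the length trend removed (unadjusted p = 0.047) and 0.70 with the GC trend removed (unadjusted p = 0.046). With globin level as a covariate it was 0.30 (unadjusted p = 0.53), the lowest of the 20 alternatives, and 4 of them gave an unadjusted p under 0.05. E2f1 and E2f3 had log2 fold changes of 0.10 and 0.01. Mycn, a Myc family factor that drives growth of the embryonic myocardium, was at 122, 115, 138 and 112 CPM in CTRL and at 128, 150, 125 and 127 CPM in Isl1_hypo, with overlapping groups and a log2 fold change of 0.12 (unadjusted p = 0.27). It was 0.05 without Isl1_hypo replicate 2, 0.19 without CTRL replicate 3 and 0.20 with globin level as a covariate.

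**Figure D4:**
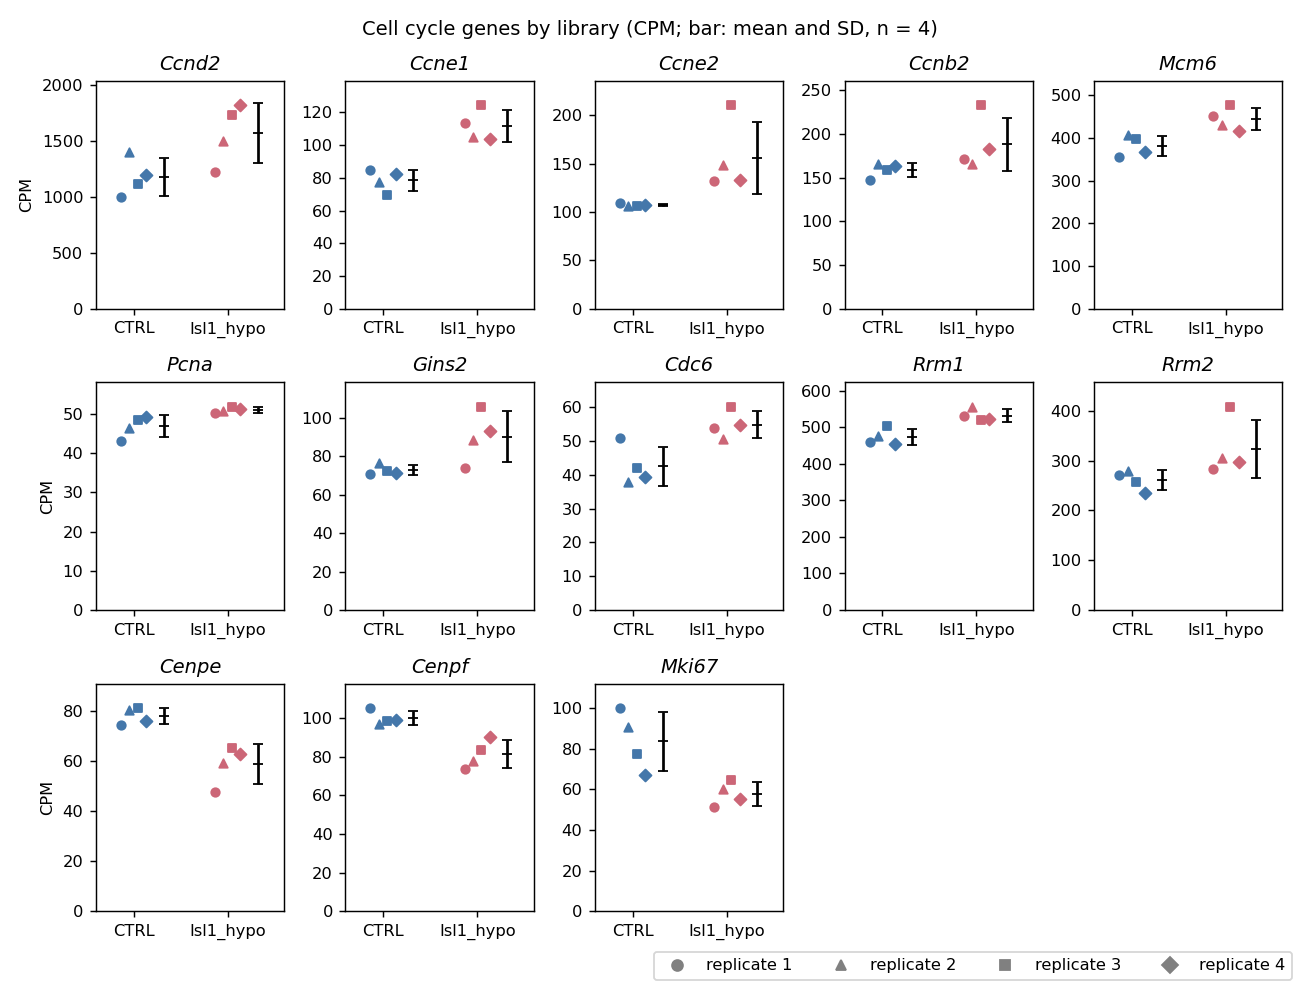
CPM in each library (vertical axis, from 0) of the 13 genes that had an unadjusted p under 0.05 or groups that did not overlap, with symbols for replicates 1 to 4 and bars for the group mean and SD (n = 4). Ccne1 separates with 69.6 to 84.7 CPM in CTRL and 104 to 124 CPM in Isl1_hypo, and Cenpe, Cenpf and Mki67 separate in the other direction.

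In the replication class, 1 of the 6 subunits of the MCM helicase, which unwinds DNA, had an unadjusted p under 0.05. Mcm6, whose promoter is printed above, was at 357, 406, 397 and 367 CPM in CTRL and at 451, 431, 476 and 417 CPM in Isl1_hypo. Every Isl1_hypo library was above every CTRL library (log2 fold change 0.22, SE 0.09, unadjusted p = 0.038, adjusted p = 0.39, edgeR). The unadjusted p of Mcm6 was under 0.05 in 9 of 20 alternatives and its log2 fold change ranged from 0.17 to 0.31.

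The other 5 MCM subunits had overlapping groups, although the 6 proteins form 1 ring. Mcm2 was at 278, 290, 305 and 269 CPM in CTRL and at 312, 335, 266 and 238 CPM in Isl1_hypo, so that the 2 highest and the 2 lowest libraries were all Isl1_hypo (log2 fold change 0.01). Mcm3 was at 200, 218, 193 and 190 CPM in CTRL and at 225, 219, 253 and 201 CPM in Isl1_hypo (log2 fold change 0.16). In Mcm3 the 3 highest libraries were Isl1_hypo, and the value was 0.10 without Isl1_hypo replicate 3 and 0.22 with the GC trend removed. Mcm4 was at 232, 229, 242 and 179 CPM in CTRL and at 234, 230.1, 238 and 218 CPM in Isl1_hypo (log2 fold change 0.06). CTRL replicate 4 was the lowest library of Mcm4, and without it the value was -0.03, whereas it was 0.11 without CTRL replicate 3, 0.13 with the length trend removed and 0.29 with globin level as a covariate (unadjusted p = 0.11). Mcm5 was at 214, 250.2, 297 and 266 CPM in CTRL and at 310, 282, 250.4 and 261 CPM in Isl1_hypo (log2 fold change 0.10). Mcm7 was at 123, 131, 148 and 134 CPM in CTRL and at 156, 146, 136 and 142 CPM in Isl1_hypo (log2 fold change 0.12). In Mcm5 and Mcm7 the lowest library was CTRL replicate 1 and the highest Isl1_hypo replicate 1. Without CTRL replicate 1 the values were 0.02 for Mcm5 and 0.07 for Mcm7, and Mcm5 was at 0.04 without Isl1_hypo replicate 1 and at 0.18 without CTRL replicate 3. None of these 5 subunits had an unadjusted p under 0.05 in any of the 20 alternatives.

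Of the factors that load the helicase and run the fork, Cdc6 and Gins2 had an unadjusted p under 0.05. Cdc6, which loads MCM onto origins, was at 50.9, 37.8, 42.0 and 39.3 CPM in CTRL and at 53.7, 50.6, 60.2 and 54.7 CPM in Isl1_hypo. Only CTRL replicate 1 reached into the Isl1_hypo values (log2 fold change 0.37, SE 0.13, unadjusted p = 0.014, adjusted p = 0.30, edgeR). Gins2, a subunit of the active helicase, was at 70.8, 76.7, 72.7 and 71.5 CPM in CTRL and at 74.0, 88.6, 106 and 93.0 CPM in Isl1_hypo. Isl1_hypo replicate 1 lay among the CTRL values and the other 3 above them (log2 fold change 0.31, SE 0.12, unadjusted p = 0.022, adjusted p = 0.32, edgeR). Without CTRL replicate 4 the value of Gins2 was 0.30 (unadjusted p = 0.052). The unadjusted p was under 0.05 in 18 of 20 alternatives for Cdc6 (0.31 to 0.47) and in 16 for Gins2 (0.22 to 0.41). Pcna, the sliding clamp of DNA polymerase, was at 43.1, 46.6, 48.6 and 49.3 CPM in CTRL and at 50.2, 50.7, 51.9 and 51.2 CPM in Isl1_hypo. Its groups did not overlap but lay close together, with a log2 fold change of 0.12 (SE 0.10, unadjusted p = 0.27). It was 0.08 without CTRL replicate 1 and, over the 20 alternatives, ran from 0.03 with globin level as a covariate (unadjusted p = 0.88) to 0.15. Cdt1, the partner of Cdc6, had a log2 fold change of 0.13.

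Of the 3 genes of nucleotide supply, Rrm2 had an unadjusted p under 0.05. Rrm2, the S phase subunit of ribonucleotide reductase, was at 271, 280.0, 256 and 234 CPM in CTRL and at 283, 305, 408 and 297 CPM in Isl1_hypo. The groups did not overlap, and Isl1_hypo replicate 3 was far above the rest (log2 fold change 0.31, SE 0.13, unadjusted p = 0.031, adjusted p = 0.36, edgeR). Without that library the log2 fold change of Rrm2 was 0.18 (unadjusted p = 0.065), and without CTRL replicate 3 or 4 it was 0.30 (unadjusted p = 0.068) or 0.26 (unadjusted p = 0.090). The unadjusted p of Rrm2 was under 0.05 in 15 of 20 alternatives. Rrm1, the other subunit, was at 459, 477, 504 and 455 CPM in CTRL and at 530.1, 557, 521 and 522 CPM in Isl1_hypo. These groups did not overlap either (log2 fold change 0.17, SE 0.09, unadjusted p = 0.078). The unadjusted p of Rrm1 was under 0.05 in 4 of 20 alternatives: 0.048 without Isl1_hypo replicate 3, 0.044 by DESeq2, 0.031 by limma-voom and 0.029 with the length trend removed, and the value ran from 0.12 with the GC trend removed to 0.25. Tyms, thymidylate synthase, had a log2 fold change of 0.12.

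Within the mitosis class, the 3 genes with an unadjusted p under 0.05 were all lower and were the longest transcripts of the class. Mki67, the gene of the proliferation antigen Ki-67 that coats mitotic chromosomes, was at 100.1, 90.5, 77.2 and 67.0 CPM in CTRL and at 51.2, 60.4, 64.5 and 55.3 CPM in Isl1_hypo. Every Isl1_hypo library was below every CTRL library, at 0.69 times the CTRL level (log2 fold change -0.53, SE 0.14, unadjusted p = 0.0026, adjusted p = 0.18, edgeR). Cenpe, a kinetochore motor, was at 74.3, 80.2, 81.1 and 75.9 CPM in CTRL and at 47.4, 59.2, 65.2 and 62.7 CPM in Isl1_hypo. These groups were also apart, with Isl1_hypo replicate 1 the lowest (log2 fold change -0.41, SE 0.12, unadjusted p = 0.0051, adjusted p = 0.22, edgeR). Cenpf, a kinetochore protein of G2 and mitosis, was at 105, 96.8, 98.6 and 99.2 CPM in CTRL and at 73.5, 77.6, 83.7 and 90.05 CPM in Isl1_hypo. The highest Isl1_hypo library was below the lowest CTRL library (log2 fold change -0.30, SE 0.10, unadjusted p = 0.011, adjusted p = 0.28, edgeR).

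Transcript length moved with this difference. Mki67 (10059 bases), Cenpf (11102) and Cenpe (7765), together with Cdk6 (11512), were the 4 cell cycle genes longer than 7500 bases. Over all 766 tested genes above that length the median log2 fold change was -0.13 and 68.2% were lower, 18.8% with an unadjusted p under 0.05, whereas genes of up to 1500 bases had a median of 0.06. With the trend of each library on length removed, Mki67 was at -0.35 (unadjusted p = 0.037), Cenpe at -0.27 (unadjusted p = 0.089), Cenpf at -0.12 (unadjusted p = 0.31) and Cdk6 at 0.08. The library with the steepest such trend toward short transcripts was Isl1_hypo replicate 3, and without it Mki67, Cenpe and Cenpf were at -0.59, -0.46 and -0.31. The trend was steepest toward long transcripts in CTRL replicate 1, and without that library the log2 fold change of Mki67 was -0.44. With globin level as a covariate Mki67 was at -0.23 (unadjusted p = 0.29), Cenpe at -0.44 (unadjusted p = 0.047) and Cenpf at -0.31 (unadjusted p = 0.087), and Ccne1 was at 0.45 (unadjusted p = 0.031).

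**Figure D5:**
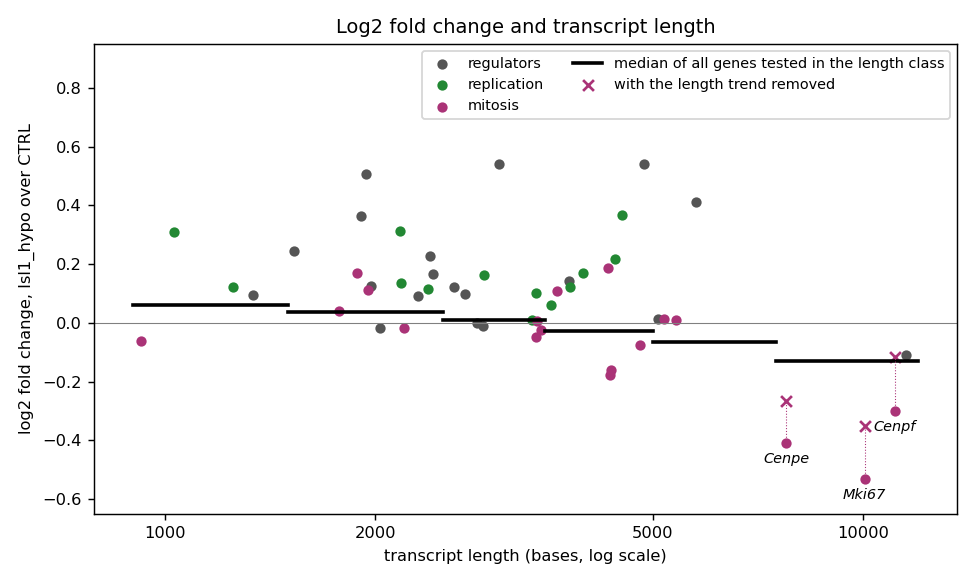
Log2 fold change (Isl1_hypo over CTRL, vertical axis) against transcript length in bases (log scale) for the 50 genes, colored by class, with black lines for the median of all tested genes in each length class and crosses for the values of Mki67, Cenpe and Cenpf with the length trend removed. The medians fall from 0.06 for the shortest to -0.13 for the longest class, and the 3 genes lie below them.

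Of the other 15 mitosis genes, 8 were higher and 7 lower. Bub1, a spindle checkpoint kinase, was at 91.5, 89.2, 82.4 and 74.2 CPM in CTRL and at 89.9, 99.3, 94.6 and 99.9 CPM in Isl1_hypo, with the 3 highest libraries all Isl1_hypo (log2 fold change 0.19, SE 0.10, unadjusted p = 0.092). Bub1 was at 0.39 with globin level as a covariate (unadjusted p = 0.030), 0.27 with the length trend removed (unadjusted p = 0.030), 0.20 by limma-voom (unadjusted p = 0.044) and 0.10 with the GC trend removed. Aurka, a kinase of the spindle poles, was at 133, 168, 141 and 144 CPM in CTRL and at 154, 166, 169 and 171 CPM in Isl1_hypo. Its groups overlapped through CTRL replicate 2 (log2 fold change 0.17, SE 0.10), and without that library Aurka was at 0.24 (unadjusted p = 0.043), the 1 alternative of 20 with an unadjusted p under 0.05, while without CTRL replicate 1 it was at 0.12 (unadjusted p = 0.26). Cdc20 was at 149, 178, 190.0 and 146 CPM in CTRL and at 154, 148, 222 and 156 CPM in Isl1_hypo (log2 fold change 0.04). Isl1_hypo replicate 3 was the highest library of Cdc20, and without it the value was -0.12. Ube2c was at 275, 316, 336 and 299 CPM in CTRL and at 324, 297, 232 and 323 CPM in Isl1_hypo, with Isl1_hypo replicate 3 the lowest (log2 fold change -0.06). The other 11 had overlapping groups and log2 fold changes from -0.18 (Tpx2, a spindle assembly factor) to 0.11 (Aurkb, the kinase of the chromosomal passenger complex). Among them Top2a, Birc5, Plk1 and Foxm1, often used as marks of dividing cells, were at 0.01, 0.01, -0.02 and -0.16.

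Further genes of the same pathways were counted from lists that hold none of the 50. The shares of all tested genes to read these counts against are again 5.69% higher and 6.17% lower at an unadjusted p under 0.05. Of 37 tested regulators 31 were higher (median 0.13), 4 of them and no lower gene at that level. The largest difference upward was that of Max, the partner of Myc (0.41, SE 0.27), and downward that of the stress gene Gadd45g (-0.38, SE 0.31), both with overlapping groups. Of 50 replication genes 31 were higher (median 0.06), with 7 higher and 2 lower at that level. Both sets were named after their values were seen. The 7 higher genes were Dtl, Prim1, Rfc4, Fen1, Tk1, Hells and Usp1, with log2 fold changes from 0.25 (Tk1, thymidine kinase) to 0.35 (Dtl, a ubiquitin ligase adaptor that acts on Cdt1). The 2 lower genes were Dnmt1, the maintenance DNA methyltransferase (-0.37, unadjusted p = 0.011), and Nasp, a histone chaperone (-0.32, unadjusted p = 0.019). The largest differences in this list were Brip1 (0.52, SE 0.25), a repair helicase, and Orc1 (-0.39, SE 0.29), a subunit of the origin recognition complex.

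Of 60 other mitosis genes 29 were higher and 31 lower (median 0.00), with 2 higher and 5 lower at an unadjusted p under 0.05 (all genes 5.69% and 6.17%). Ncapg, a condensin subunit, was at 71.3, 65.7, 64.4 and 63.1 CPM in CTRL and at 77.2, 96.2, 86.1 and 79.6 CPM in Isl1_hypo. It had the largest difference upward, with no overlap (0.36, SE 0.11, unadjusted p = 0.0056). Incenp, the scaffold of the chromosomal passenger complex, was at 81.2, 74.5, 76.6 and 68.1 CPM in CTRL and at 67.6, 63.2, 36.2 and 46.2 CPM in Isl1_hypo. It had the largest difference downward, again with no overlap (-0.50, SE 0.18, unadjusted p = 0.018). Among 12 p53 targets other than Cdkn1a, 9 were higher (median 0.15) and 1 had an unadjusted p under 0.05, Trp53inp1 (0.64, SE 0.18, unadjusted p = 0.0051), while the largest difference downward was that of Bbc3 (-0.37, SE 0.25). No gene of these 4 lists had an adjusted p under 0.05 by edgeR.

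Markers of other cell types in the dissected tissue were compared as well. Endothelial markers had a median log2 fold change of -0.29 over 9 genes (summed level 765 to 896 CPM in CTRL and 603 to 816 CPM in Isl1_hypo) and mesenchymal markers -0.34 over 10 (1859 to 2757 and 1101 to 3353 CPM). The 5 tested epithelial markers were higher (median 0.92, 95.8 to 174 and 179 to 330 CPM), and the 7 tested macrophage markers were lower (median -0.86, 11.5 to 24.5 and 4.33 to 16.1 CPM). In 2 epithelial markers every Isl1_hypo library lay above every CTRL library and in 2 endothelial markers below, against 4.06% and 4.44% of all genes. The mesenchymal, macrophage and neural markers all had overlapping groups. Of 8 neural markers 3 were tested (median -0.45, 53.5 to 78.3 and 32.9 to 55.0 CPM), with Neurog1 at 0 in every library. Of 17 myocardial markers 9 were higher and 8 lower (median 0.00). Nppa, atrial natriuretic peptide, rose by 1.13 on the log2 scale (SE 0.17, adjusted p = 0.030, edgeR). The largest difference downward was that of the sarcomere gene Ttn (-0.90, SE 0.23, adjusted p = 0.17, edgeR), and with Myh7, a ventricular myosin heavy chain (-0.49, SE 0.12, adjusted p = 0.16, edgeR), it was lower in every Isl1_hypo library than in any CTRL library. Of the erythroid markers (median 1.73), Epb42, a red cell membrane protein, rose by 2.28 (SE 0.31, adjusted p = 0.017, edgeR), and the globin genes, listed under 9 symbols, had a median of 1.66. Reads of the near-identical copies Hba-a1 and Hba-a2, of Hbb-b1 and Hbb-bs, or of Hbb-b2 and Hbb-bt may be shared, so the 9 are not separate measurements and their values are uncertain. The ends of the other marker lists were Nfatc1 (0.36) and Cldn5 (-1.12) for endothelium, Lum (2.14) and Postn (-0.72) for mesenchyme, and Epcam (2.44) and Krt19 (0.77) for epithelium, each with overlapping groups and none with an adjusted p under 0.05. Of these, Lum and Epcam were high in Isl1_hypo replicate 1 (196 and 9.83 CPM) and at 9.27 to 24.5 and 0.32 to 1.87 CPM in the other 3 Isl1_hypo libraries, against 7.92 to 24.6 and 0.13 to 0.98 CPM in CTRL. For macrophages they were Ptprc (-0.46) and C1qa (-1.26), for the neural list Elavl4 (0.16) and Stmn2 (-0.61), and for globins Hba-a1 (2.03) and Hbb-b2 (0.94), likewise without an adjusted p under 0.05. The part of these cell types in the cell cycle values was not tested. Globin genes took 0.212% to 1.19% of counts in CTRL and 1.18% to 2.44% in Isl1_hypo. The fit with globin level therefore cannot tell blood and genotype apart.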

How the data were processed

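Members and gene lists were chosen with earlier results of these data known. Sequencing was on BGISEQ-500. The authors aligned reads with STAR to mm9 and counted exon reads per RefSeq transcript with HOMER, ignoring strand, so reads of overlapping or antisense genes are added together. The handling of reads that match several places, such as pseudogenes, was not given in the sources used here. The deposited counts are raw whole numbers. The deposited RPKM values were made by the authors with edgeR from these counts and served only for levels per length. The table also gives each transcript's length. Columns of the authors' own DESeq2 comparison (mean signal, log2 fold change, standard error, statistic and p-values) were not used.

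From 31507 transcripts the one with the highest mean count was kept per symbol (20701). Low counts were removed with filterByExpr (13769 genes left), libraries scaled by TMM, and groups compared with edgeR 4.0.16 (glmQLFit, glmQLFTest, R 4.3.3) without covariates, with Benjamini-Hochberg adjustment over all genes tested. The standard error is the log2 fold change divided by the square root of F. Log2 CPM used a prior count of 2. The biological coefficient of variation was 26.4%. The fit was tested on simulated data. No replicates were alike within sampling noise.

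Values in each library were given for genes with an unadjusted p under 0.05 or groups apart, for the 2 largest rises, 2 largest falls and 2 highest RPKM of each class, and for D-type cyclins, inhibitors, Mycn, Mki67 and the 6 Mcm genes. Of other lists, genes with an adjusted p under 0.05 or at either end of the list were named by rule, except that the ends of the erythroid list are not reported here. Myh7 and the replication genes so marked were named after their values were seen. Alternatives were RLE and upper quartile factors, DESeq2 1.42.0, limma 3.58.1 (voom with sample weights), no filter, at least 10 counts in every library, the longest transcript, a replicate block, globin or Y-linked level as a covariate, removal of the length trend (loess, span 0.5), each library left out, and, chosen after seeing the data, removal of the GC trend (GC known for 91.4% of tested genes). These make 12 alternatives with all libraries and 8 without 1 library.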

Additional observations from a re-analysis of the deposited data

Results flagged for a closer look

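In 70 groups of 4 libraries (each named gene and each class, plus Isl1), the gap between an extreme library and its neighbor was compared with the range of its group (Dixon's test). A library stood apart in 4 of them, and chance at 1 in 20 gives 3.5. Ccnd3 was at 9.42 log2 CPM in Isl1_hypo replicate 3, below 9.72 to 9.76 in the other 3 libraries of its group. Cdc20 was at 7.79 log2 CPM in the same library, above 7.21 to 7.29. Mycn was at 7.23 log2 CPM in Isl1_hypo replicate 2, above 6.97 to 7.0002. The mean of the mitosis class was 6.82 log2 CPM in CTRL replicate 4, below 6.99 to 7.01 in the other CTRL libraries.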

How the results depend on the processing

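The number of genes with an adjusted p under 0.05 (37) was 319 with DESeq2, 134 with limma-voom, 56 with the GC trend removed, 3 with Y-linked level as a covariate, 0 with globin level as a covariate, and 4 to 48 when 1 library was left out (4 without CTRL replicate 3, 5 without CTRL replicate 2, 8 without CTRL replicate 1, 11 without Isl1_hypo replicate 4 and 12 without Isl1_hypo replicate 2). Of the 50 cell cycle genes, 3 passed with DESeq2 (2.32% of all genes), 1 with limma-voom (0.973% of all genes) and 0 in the other alternatives. The count at an unadjusted p under 0.05 (10) was 12 with DESeq2, 13 with limma-voom, 3 with the globin covariate, and 8 to 11 with 1 library left out. Of all genes 6.22% were higher and 6.98% lower at that level with DESeq2, and 6.71% and 6.94% with limma-voom. With 1 library left out these shares were 4.21% to 6.485% and 4.98% to 7.36%. With the GC trend removed 6 of the 19 regulators instead of 3 were higher at that level (6.11% of all genes). With the globin or the Y-linked covariate 0 of the 13 replication genes had an unadjusted p under 0.05 (all genes then 2.01% higher and 1.55% lower, or 3.10% and 3.40%). The number with no overlap was 11 to 16 of 50 with 1 library left out, which loosens the condition, against 11.24% to 14.2% of all genes. With the globin covariate the 3 genes at an unadjusted p under 0.05 were Ccne1, Bub1 and Cenpe, while Ccnd2, Ccne2, Cdc6, Mcm6, Gins2, Rrm2, Cenpf and Mki67 kept their sign with an unadjusted p of 0.087 (Cenpf) to 0.29 (Mki67). The log2 fold changes of the latter genes, in that order, were 0.39, 0.39, 0.41, 0.23, 0.27, 0.35, -0.31 and -0.23. Isl1 stayed at -2.29 with that covariate (adjusted p = 0.54). With that covariate the medians were 0.20 for regulators, 0.21 for replication and 0.059 for mitosis. The replication median was 0.20 with the length trend removed (all genes 0.0402) and the regulator median 0.20 with the GC trend removed (all genes 0.0334). With upper quartile factors 14 of 19 regulators, 12 of 13 replication and 5 of 18 mitosis genes were higher (median of all genes -0.0091).

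Genes near 0 changed sign: Mcm2 to -0.0035 with upper quartile factors, Cdc20 to -0.13 with limma-voom and -0.11 with the Y-linked covariate, Cdk6 to 0.054, 0.0071 and 0.081 with the globin covariate, the Y-linked covariate and the length trend removed, Ube2c to 0.024 with the globin covariate, and Cdkn2c to 0.033 with the GC trend removed. With 1 library left out, Mcm2 ranged from -0.0765 to 0.090, Cdc20 from -0.12 to 0.11, Cdkn2c from -0.21 to 0.24, Mcm4 from -0.027 to 0.11 and Ube2c from -0.11 to 0.038. The cause was not tested.

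Same-numbered replicates did not deviate together (correlations -0.021 to 0.022), and 1 of the 4 numbers correlated best with itself. The data thus showed no sign of pairing, but this cannot establish that the embryos were unpaired, which the labels do not state. With the replicate number as a block, 0 genes had an adjusted p under 0.05, 9 of the 50 an unadjusted p under 0.05, Isl1 was at -2.29 (adjusted p = 0.072) and Mcm2 at -0.0005. At this depth Cdkn2c, at 1.18 to 2.53 CPM, allows no statement on a difference.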
